A study of Mus musculus with 17 samples.

Results

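The 7 genes described here handle zinc in the cell: the metallothioneins Mt1 and Mt2, the zinc importers Slc39a14, Slc39a8 and Slc39a4, the zinc exporter Slc30a1 and the transcription factor Mtf1. They were taken by gene symbol from both expression tables of the study, and all 7 of the 7 were found among the 24327 genes kept. The tables hold bulk RNA-seq of mouse lung, 17 libraries in 5 genotype groups and 2 experiments. In the first experiment, 3 libraries of LysMcre;Nlrp3A350V mice, called the Nlrp3 mutant, stood against 3 of a group labelled Control. In the second, 4 libraries of LysMcre;Nlrp3A350V;Il181r-/- mice, called the Il18r1 null mutant, and 3 of LysMcre;Nlrp3A350V;Il181r+/- mice, called the Il18r1 het mutant, stood against 4 of a group labelled Il18r1 control. All 3 mutant groups thus carried both LysMcre and the Nlrp3A350V allele, and the alleles of the control groups were not given further in the labels. LysM-cre is active in myeloid cells and, in lung, also in part of the type 2 alveolar epithelial cells. A350V is a missense change that makes the inflammasome sensor NLRP3 overactive, and Il18r1 codes for the ligand-binding chain of the IL-18 receptor. The series title asks whether NLRP3, IL-18 and TNF act on the building of the gas exchange surface of the lung. Neither age nor sex nor litter was labelled, and no label said that libraries of a group came from separate mice, so p-values measure the spread between these libraries, which may be technical.

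Metallothioneins are small proteins rich in cysteine that bind zinc and copper, and their genes respond within hours to free zinc. MTF1, a zinc-sensing transcription factor, binds metal response elements in their promoters and in that of Slc30a1, which codes for the zinc exporter ZnT1 of the cell surface. The same metallothionein genes also respond to glucocorticoids and, in mouse liver, to IL-6 acting through STAT3. Slc39a14 (ZIP14) and Slc39a8 (ZIP8) import zinc, manganese and iron, and ZIP14 takes up zinc into mouse liver during the acute phase response. Slc39a4 (ZIP4) is best known as the zinc importer of the intestine.

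Mt2 and Mt1 lay next to each other on chromosome 8 in the GENCODE annotation of GRCm38. Mt2 spanned chr8:94172664-94173568 and Mt1 spanned chr8:94179082-94180327, both on the plus strand, with 5513 bases from the end of Mt2 to the start of Mt1. Slc39a14 lay at chr14:70303469-70351425 on the minus strand, Slc39a8 at chr3:135825279-135888572 on the plus strand and Slc39a4 at chr15:76612383-76617384 on the minus strand. Slc30a1 lay at chr1:191906767-191913247 and Mtf1 at chr4:124802104-124849800, both on the plus strand. The promoter windows below run from 250 bases before to 50 bases after the RefSeq start (GRCm38.p6) and are given for the 3 members in which the core of the metal response element occurred more than once, since MTF1 is the regulator these genes share. They are chr8:94172368-94172667 for Mt2, chr8:94178839-94179138 for Mt1 and chr1:191906531-191906830 for Slc30a1, read 5′ to 3′ on the plus strand, with each core, TGCACNC or TGCGCNC on either strand, in capitals:
Mt2: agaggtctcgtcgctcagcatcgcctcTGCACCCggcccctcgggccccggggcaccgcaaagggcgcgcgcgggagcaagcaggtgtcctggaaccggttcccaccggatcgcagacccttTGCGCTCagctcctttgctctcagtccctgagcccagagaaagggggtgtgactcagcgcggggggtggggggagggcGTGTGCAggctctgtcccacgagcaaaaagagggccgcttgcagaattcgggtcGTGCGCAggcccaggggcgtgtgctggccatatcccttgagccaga
Mt1: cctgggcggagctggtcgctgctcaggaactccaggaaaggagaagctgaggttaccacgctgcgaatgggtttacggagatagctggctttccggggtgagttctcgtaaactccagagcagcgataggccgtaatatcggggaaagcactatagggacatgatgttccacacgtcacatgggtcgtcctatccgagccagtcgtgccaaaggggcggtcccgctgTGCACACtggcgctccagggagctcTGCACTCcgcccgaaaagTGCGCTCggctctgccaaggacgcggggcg
Slc30a1: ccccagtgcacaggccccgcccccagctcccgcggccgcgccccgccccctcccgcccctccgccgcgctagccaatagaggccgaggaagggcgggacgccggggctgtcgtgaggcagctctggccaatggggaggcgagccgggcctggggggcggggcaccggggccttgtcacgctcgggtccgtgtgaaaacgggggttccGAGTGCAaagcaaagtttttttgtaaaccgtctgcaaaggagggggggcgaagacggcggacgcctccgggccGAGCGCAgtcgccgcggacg
The Mt2 window held 4 cores, which began at -223, -128, -50 and 4 bases from the RefSeq start. That start is at 94172618 for Mt2, 94179089 for Mt1 and 191906781 for Slc30a1, which differ from the GENCODE gene starts above. In the Mt1 window there were 3, at -23, 2 and 20 bases, and in the Slc30a1 window 2, at -43 and 30 bases. Of 32851 mouse promoter windows of this length, 7.11% held at least 2 cores, 1.97% at least 3 and 0.518% at least 4. A window was at hand for 5 of the 7 members. Slc39a8 had a pair of windows, of which 1 held 1 core, and 25.7% of all windows held at least 1. The Mtf1 window held no core. Neither the STAT motif TTCNNNGAA, found in 8.30% of all windows, nor the glucocorticoid response element, a palindrome searched in its full consensus form and found in 0.0091%, had a match in the members' windows. These matches are letters in a window and were not tested as binding sites.

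Between 13147 and 13450 genes reached 1 FPKM per library, FPKM being a fragment count divided by gene length and by library size. Counts of reads were not given. Relative depth, with library 1 of a table set to 1, spanned 0.79 to 1 in the table of the Nlrp3 mutant and 0.753 to 1.15 in that of the Il18r1 mutants. Il18r1 RNA stood at 6.98, 9.00, 8.59 and 8.46 FPKM in the null mutant, 30.7, 29.9 and 31.2 FPKM in the het mutant and 13.4 to 15.0 FPKM in the Il18r1 control, so it was lowest where the label says the gene is lost but was still read there. Nlrp3 RNA cannot check a missense allele. Lung was checked by its alveolar epithelium: all 8 type 2 and all 6 type 1 markers were present, none of them at 0 in a group. The groups were not alike in sex-linked RNA: Xist, expressed from the inactive X chromosome, was at 37.7 to 73.0 FPKM in 8 libraries and at most 0.0426 FPKM in the other 9, and those 9 had all 4 Y-linked genes looked at. The 8 were all 3 Nlrp3 mutant libraries, all 3 het mutant libraries and libraries 2 and 4 of the null mutant. Sex and genotype therefore cannot be told apart in the Nlrp3 mutant against Control and in the het mutant against the Il18r1 control.

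In lungs of the Nlrp3 mutant both metallothioneins and all 3 importers were higher than in Control. Mt2 rose the most among the 7, to 2.67 times the Control mean. The 3 importers reached 2.34, 2.11 and 2.02 times the Control mean for Slc39a14, Slc39a8 and Slc39a4. The exporter Slc30a1 rose by far less, and Mtf1 did not pass the test. In bulk tissue, a change in the number of cells of a type and a change in the RNA of each cell cannot be told apart. By limma on log2(FPKM + 1), with Benjamini-Hochberg adjustment over 13549 genes, 6 of the 7 members were called higher at an adjusted p under 0.05, where 28.0% of all genes tested were called higher and 27.6% lower. Their median log2 fold change was 0.96, beside 0.0023 over all genes. The members were chosen with earlier results of these data known. Such contrasts with all genes, here and below, therefore only describe the members.

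Mt2 stood at 46.4, 31.2 and 43.9 FPKM in the 3 Nlrp3 mutant libraries, against 13.5, 18.4 and 13.7 FPKM in Control. Mutant library 2 was the lowest of its group, yet it lay above every Control library. The log2 fold change was 1.35 (SE 0.165, adjusted p = 0.000326). Mt1 was at 66.0, 47.1 and 67.8 FPKM in the mutant and at 37.6, 36.0 and 33.5 FPKM in Control. Again library 2 was lowest and the groups did not overlap. Of all 13549 genes tested, 32.2% had every mutant library above every Control library. Its log2 fold change was smaller, 0.72 (SE 0.131, adjusted p = 0.00227).

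The importers differed among themselves in how alike the libraries were. Slc39a8 was the most abundant member per unit of gene length, at 144, 143 and 145 FPKM in the mutant, against 71.0, 64.9 and 69.5 FPKM in Control. The 3 mutant libraries were nearly equal and far from Control. This gave a log2 fold change of 1.07 (SE 0.0513, adjusted p = 7.36e-06). Slc39a4, at a lower level, was at 20.2, 21.2 and 21.2 FPKM in the mutant and 11.0, 8.87 and 11.1 FPKM in Control, again without overlap, with a log2 fold change of 0.96 (SE 0.0865, adjusted p = 7.83e-05). Slc39a14 was the most uneven member, with 22.3, 8.12 and 16.0 FPKM in the mutant, against 6.32, 6.84 and 6.70 FPKM in Control. Library 2 of the mutant stood just above Control, whereas library 1 stood far above every Control library. Its log2 fold change of 1.01 had the widest error of the 7 (SE 0.291, adjusted p = 0.0192). The call was lost without Control library 1 (0.98, adjusted p = 0.0568) or without mutant library 3 (0.94, adjusted p = 0.0643), and with mutant library 1 left out the log2 fold change was 0.71, the lowest of these values.

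Slc30a1 was at 18.4, 18.1 and 18.0 FPKM in the Nlrp3 mutant and at 15.3, 15.4 and 15.3 FPKM in Control. The groups were narrow and apart, by a log2 fold change of 0.24 (SE 0.0493, adjusted p = 0.00461). When the libraries were scaled to equal total FPKM, it fell to 0.079 (adjusted p = 0.296) and was no longer called. Under another scaling, by median of ratios, 6 of the 7 members were called higher, the same number as in the main fit. Mtf1 was the lowest member, at 5.10, 4.84 and 5.14 FPKM in the mutant and 4.63, 4.83 and 4.53 FPKM in Control. The lowest mutant library was barely above the highest Control library. Its log2 fold change was 0.09, with a 95% interval of -0.07 to 0.25 (adjusted p = 0.297).

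**Figure D1:**
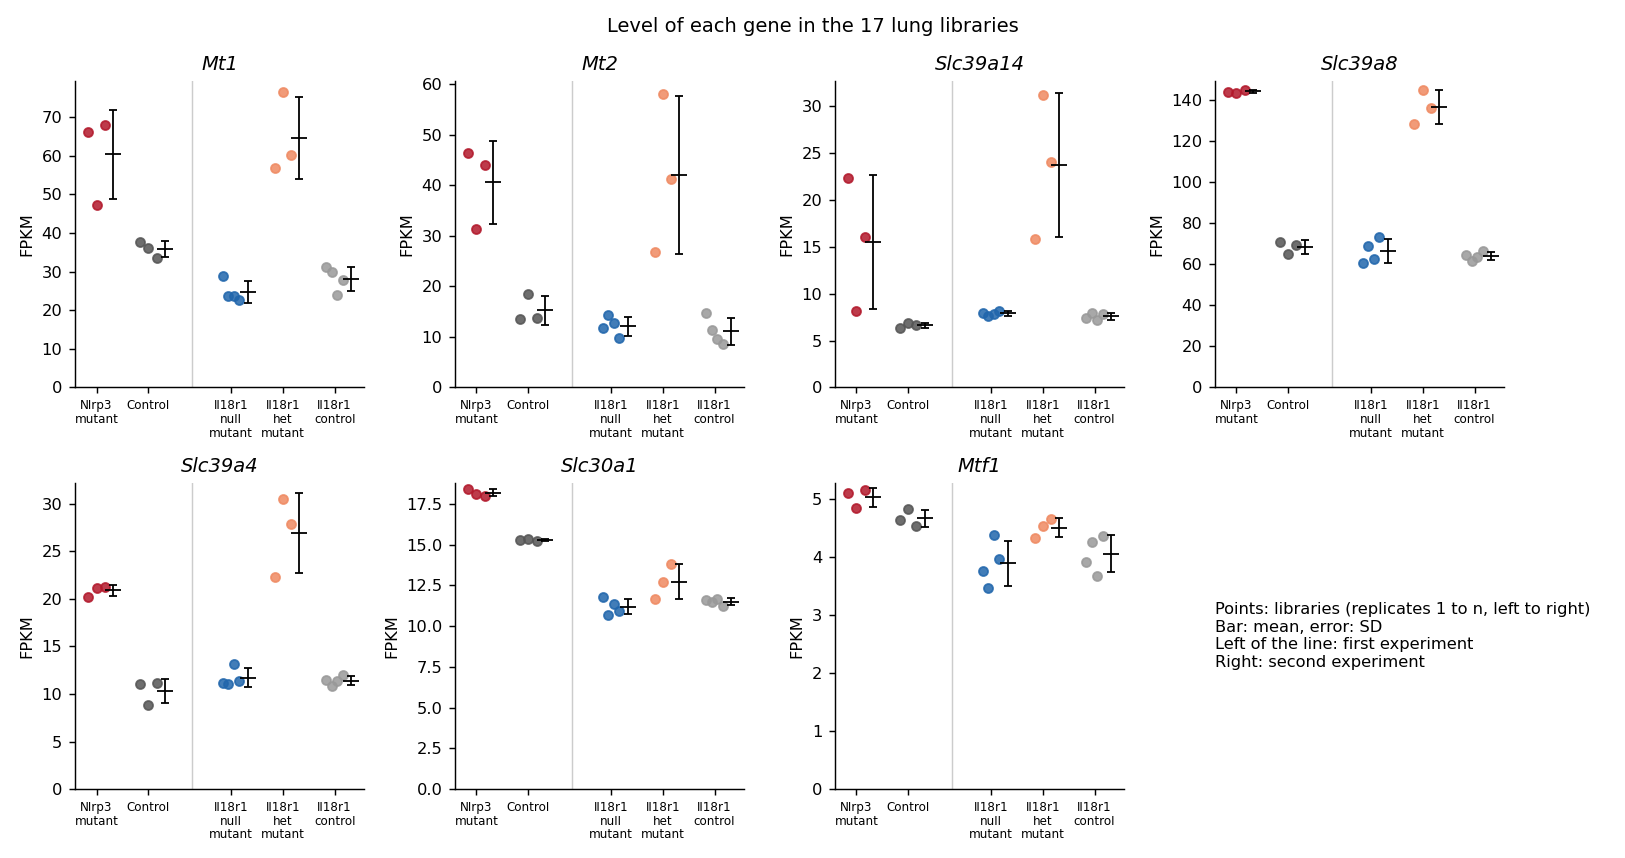
FPKM (y axis, from 0) of each of the 7 genes in all 17 libraries, with points for libraries, bars for the group mean and error bars for the SD; the first experiment is left of the grey line and the second right of it. Mt1, Mt2 and the 3 importers are high in the Nlrp3 mutant and in the het mutant, and the 4 libraries of the null mutant lie at the level of the Il18r1 control, such as 60.8 to 73.2 FPKM against 61.5 to 66.6 FPKM for Slc39a8.

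Markers of several cell types also differed between the same libraries. Summed FPKM of the 8 neutrophil markers in the table was 9278 to 14921 in the Nlrp3 mutant and 358 to 1278 in Control, with all 8 called higher. The 10 macrophage markers summed to 926 to 1523 FPKM in the mutant and 217 to 284 FPKM in Control, and 8 were called higher. Few genes carried these 2 differences. S100a8 and S100a9 together averaged 11871 FPKM in the mutant and 720 FPKM in Control, and the macrophage marker Chil3 averaged 634 and 10.7 FPKM. The 8 type 2 alveolar epithelial markers summed to 26662 to 33675 FPKM in the mutant and 19496 to 21248 FPKM in Control, with 7 called higher, and the 6 type 1 markers to 2171 to 2261 FPKM in the mutant and 1327 to 1508 FPKM in Control, with all 6 called higher. Erythroid markers, 6 in the table, summed to 540 to 1429 FPKM in the mutant and 3039 to 3525 FPKM in Control, with 4 of 5 tested called lower. Of the 6 endothelial markers 4 were called lower, with sums of 1063 to 1075 FPKM in the mutant and 1262 to 1321 FPKM in Control, and of the 6 fibroblast markers 2 were higher and 3 lower, with sums of 1060 to 1096 FPKM in the mutant and 1314 to 1412 FPKM in Control. The 5 heart muscle genes summed to 219 to 261 FPKM in the mutant and 127 to 172 FPKM in Control, and 3 were called higher. The source of their RNA in these libraries was not tested. The part of these cells and tissues in the zinc gene changes was not tested.

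With 1 intact copy of Il18r1, the Nlrp3 mutant lung showed higher levels of the same 5 genes: both metallothioneins and all 3 importers. In the het mutant Mt2 reached 3.79 times, Slc39a14 3.13 times and Mt1 2.29 times the mean of the Il18r1 control. Slc39a4 and Slc39a8 reached 2.36 and 2.13 times it. Slc30a1 and Mtf1 did not pass the test. Of the 7 members, 5 were called higher, where 27.3% of all 13724 genes tested were called higher and 28.9% lower, and the median log2 fold change was 1.16 for the members, beside -0.017 for all genes.

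Mt2 stood at 26.9, 58.1 and 41.3 FPKM in the het mutant, against 14.7, 11.4, 9.64 and 8.62 FPKM in the Il18r1 control. The highest het library held 2.16 times the lowest, but all 3 lay above the control. The log2 fold change was 1.79 (SE 0.227, adjusted p = 3.99e-05). Mt1 was tighter, with 56.9, 76.6 and 60.1 FPKM in the het mutant and 31.1, 29.8, 24.0 and 27.7 FPKM in the Il18r1 control. No library of either group reached the other group's range, and the log2 fold change was 1.16 (SE 0.115, adjusted p = 5.46e-06). Every het library lay above every control library for 27.4% of all 13724 genes tested.

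Slc39a14 was at 15.9, 31.3 and 24.1 FPKM in the het mutant and 7.38, 7.92, 7.18 and 7.86 FPKM in the Il18r1 control. Here even the lowest het library was well above the control. Its log2 fold change was 1.48 (SE 0.157, adjusted p = 9.6e-06). Slc39a8 was at 128, 145 and 136 FPKM in the het mutant and 64.4, 61.5, 63.6 and 66.6 FPKM in the Il18r1 control. Both groups were narrow and far apart, which gave the smallest adjusted p of the members (log2 fold change 1.08, SE 0.0669, adjusted p = 1.63e-07). Slc39a4 was at 22.3, 30.5 and 27.9 FPKM in the het mutant and 11.4, 10.8, 11.4 and 12.0 FPKM in the Il18r1 control, also without overlap (log2 fold change 1.16, SE 0.093, adjusted p = 1.05e-06).

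Slc30a1 was at 11.7, 12.7 and 13.8 FPKM in the het mutant, against 11.6, 11.5, 11.7 and 11.2 FPKM in the Il18r1 control. Het library 1 lay at the control's level, so the groups overlapped. The log2 fold change was 0.13 (95% interval 0.0058 to 0.26, adjusted p = 0.0704), and it turned to -0.017 at equal total FPKM. Without het library 1 it was 0.19 and passed (adjusted p = 0.0149). Mtf1 was at 4.33, 4.53 and 4.65 FPKM in the het mutant and 3.91, 4.26, 3.68 and 4.37 FPKM in the Il18r1 control, a log2 fold change of 0.12 (95% interval -0.041 to 0.29, adjusted p = 0.182). In the authors' deposited table of this comparison, the log2 fold changes were 1.31 for Mt1, 1.99 for Mt2, 1.69 for Slc39a14, 1.14 for Slc39a8 and 1.18 for Slc39a4, all called. Slc30a1 (0.12, adjusted p = 0.155) and Mtf1 (0.17, adjusted p = 0.0926) were not called there. That table called 8365 of the 18092 genes with an adjusted p, in either direction.

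Neutrophil markers summed to 9954 to 19177 FPKM in the het mutant and 204 to 306 FPKM in the Il18r1 control, and macrophage markers to 1062 to 1311 FPKM in the het mutant and 245 to 294 FPKM in the control. Of these, S100a8 and S100a9 together averaged 13374 FPKM in the het mutant and 232 FPKM in the control, and Chil3 435 and 9.88 FPKM. Type 2 alveolar epithelial markers summed to 22809 to 23575 FPKM in the het mutant and 15748 to 16661 FPKM in the control. Type 1 markers summed to 2134 to 2472 FPKM in the het mutant and 1443 to 1598 FPKM in the control. All 8 neutrophil, all 10 macrophage, all 8 type 2 and all 6 type 1 markers were called higher. Erythroid markers summed to 1604 to 1855 FPKM in the het mutant and 2732 to 4961 FPKM in the control, with all 5 tested called lower. Endothelial markers, 3 of 6 called lower, summed to 1227 to 1309 FPKM in the het mutant and 1416 to 1720 FPKM in the control. Fibroblast markers, 2 higher and 3 lower, summed to 1090 to 1283 FPKM in the het mutant and 1384 to 1471 FPKM in the control. Heart muscle genes summed to 227 to 308 FPKM in the het mutant and 66.8 to 173 FPKM in the control, with 4 of 5 called higher. The part of all these in the member changes was not tested.

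In the mutant without an intact copy of Il18r1, none of the 7 genes differed from the Il18r1 control by the test. The groups overlapped for each of them, as for most genes. Of all 13724 genes tested, only 5.06% lay wholly higher and 3.40% wholly lower in the null mutant. No member was called (0 of 7), where 1.97% of all genes tested were called in either direction. None of the 7 reached an unadjusted p under 0.05, which 1410 of all 13724 genes did. The authors' deposited table of this comparison also called 0 of the 7, where it called 652 of 17391 genes. The median log2 fold change of the members was 0.033, beside -0.0079 for all genes.

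The null mutant libraries held Mt1 at 28.8, 23.7, 23.6 and 22.7 FPKM, against 31.1, 29.8, 24.0 and 27.7 FPKM in the Il18r1 control. Null library 1 lay inside the control's range and the other 3 just under it. The 95% interval of the log2 fold change was -0.41 to 0.05 around -0.18 (adjusted p = 0.644). Mt2 was at 11.8, 14.3, 12.7 and 9.71 FPKM in the null mutant, against 14.7, 11.4, 9.64 and 8.62 FPKM in the Il18r1 control. Here the ranges were almost the same, but the libraries were spread enough that the interval, -0.33 to 0.59 around 0.13, was the widest of the 7 (adjusted p = 0.909).

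Slc39a14 was at 7.99, 7.57, 7.82 and 8.20 FPKM in the null mutant, against 7.38, 7.92, 7.18 and 7.86 FPKM in the Il18r1 control, a log2 fold change of 0.052 (95% interval -0.27 to 0.37, adjusted p = 0.956). Slc39a8 was at 60.8, 68.9, 62.5 and 73.2 FPKM in the null mutant, against 64.4, 61.5, 63.6 and 66.6 FPKM in the control, a log2 fold change of 0.047 (95% interval -0.089 to 0.18, adjusted p = 0.881). For both importers the null libraries lay in and around the control's range. Slc39a4 was at 11.1, 11.1, 13.2 and 11.4 FPKM in the null mutant, against 11.4, 10.8, 11.4 and 12.0 FPKM in the control (0.033, 95% interval -0.16 to 0.22, adjusted p = 0.953). Slc30a1 was at 11.8, 10.7, 11.4 and 10.9 FPKM in the null mutant and 11.6, 11.5, 11.7 and 11.2 FPKM in the control (-0.035, 95% interval -0.15 to 0.083, adjusted p = 0.902). Mtf1, at 3.75, 3.46, 4.37 and 3.96 FPKM in the null mutant and 3.91, 4.26, 3.68 and 4.37 FPKM in the control, differed by -0.049 (95% interval -0.20 to 0.10, adjusted p = 0.893).

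Other genes did differ between the same libraries. Neutrophil markers summed to 2112 to 2901 FPKM in the null mutant and 204 to 306 FPKM in the Il18r1 control, with all 8 called higher. S100a8 and S100a9, the subunits of the zinc-binding protein calprotectin and members of that marker list, were higher by 3.54 (adjusted p = 8.07e-07) and 3.42 (adjusted p = 1.83e-06) in log2. Macrophage markers summed to 281 to 379 FPKM in the null mutant and 245 to 294 FPKM in the control, with 2 of 10 called higher, and no alveolar epithelial, endothelial, fibroblast or heart muscle marker was called. Heart muscle genes summed to 128 to 195 FPKM in the null mutant and 66.8 to 173 FPKM in the control, and 1 of 5 tested erythroid markers was called lower.

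Set against the het mutant, the null mutant had lower levels of both metallothioneins and all 3 importers. The means were 0.288 times the het mean for Mt2, 0.333 times for Slc39a14 and 0.383 times for Mt1. They were 0.435 times for Slc39a4 and 0.486 times for Slc39a8. With Slc30a1, 6 of the 7 members were called lower, where 26.5% of all genes tested were called lower and 26.8% higher, and the median log2 fold change was -1.13 for the members, beside 0.0066 for all genes. This comparison and the 2 before it share libraries, so their values are set side by side only.

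For each of the 5, the highest null library lay below the lowest het library, as 26.0% of all 13724 genes tested did. For Slc39a14, 8.20 FPKM was the highest in the null mutant and 15.9 FPKM the lowest in the het mutant. The log2 fold changes were -1.66 for Mt2 (SE 0.227, adjusted p = 8.27e-05) and -1.34 for Mt1 (SE 0.115, adjusted p = 2.83e-06). Among the importers they were -1.43 for Slc39a14 (SE 0.157, adjusted p = 1.69e-05), -1.13 for Slc39a4 (SE 0.093, adjusted p = 2.24e-06) and -1.03 for Slc39a8 (SE 0.0669, adjusted p = 4.07e-07). In the authors' deposited table the 5 had log2 fold changes of -1.44 (Mt1), -1.93 (Mt2), -1.63 (Slc39a14), -1.08 (Slc39a8) and -1.15 (Slc39a4). That table called 7633 of the 17316 genes with an adjusted p, in either direction.

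The exporter and the regulator were less clear. Slc30a1, at 11.8, 10.7, 11.4 and 10.9 FPKM in the null mutant and 11.7, 12.7 and 13.8 FPKM in the het mutant, overlapped between the groups and was called with a log2 fold change of -0.17 (SE 0.0585, adjusted p = 0.0287). That call was lost under several other settings and its sign turned at equal total FPKM (0.023, adjusted p = 0.76). Mtf1 had a log2 fold change of -0.17 (95% interval -0.34 to -0.008, adjusted p = 0.0723). In the authors' deposited table, which rests on counts, Mtf1 was called (-0.25, adjusted p = 0.0238) and Slc30a1 was not (-0.18, adjusted p = 0.053).

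Libraries 2 and 4 of the null mutant had Xist, as all 3 het libraries did, so these could be contrasted with null libraries 1 and 3 left out. The Il18r1 control libraries, without Xist, stayed in that fit and entered its filter and its estimate of the spread. This contrast was added after the values were seen. The log2 fold changes were -1.42 for Mt1, -1.69 for Mt2, -1.43 for Slc39a14, -0.93 for Slc39a8, -1.18 for Slc39a4 and -0.21 for Slc30a1, all 6 called lower in a fit where 23.3% of the 13665 genes tested were called lower. Null libraries 1 and 3, without Xist, set against the Il18r1 control, all without Xist, gave 0 of 7 members called, where 1.72% of 13657 genes were called in either direction. The het libraries, with Xist, stayed in this fit in the same way. With Xist as a covariate and all 11 libraries, 5 members were called higher in the het mutant against the Il18r1 control, where 19.3% of all genes were. In that fit 0 were called in the null mutant against the control, where 1.76% of all genes were, and 6 were lower in the null against the het mutant, where 24.4% of all genes were. Only the null mutant held libraries both with and without Xist, so the covariate was estimated almost wholly from that group. It therefore cannot part sex from genotype in the het mutant against the Il18r1 control. Type 2 alveolar epithelial markers summed to 14154 to 18155 FPKM in the null mutant and 22809 to 23575 FPKM in the het mutant, with all 8 called lower, as were 7 of 8 neutrophil, all 10 macrophage and all 6 type 1 markers. Erythroid markers were higher for 3 of 5 tested and endothelial markers for 2 of 6, fibroblast markers were higher for 3 and lower for 2 of 6, and heart muscle genes, at 128 to 195 FPKM in the null mutant and 227 to 308 FPKM in the het mutant, were higher for 1 and lower for 2 of 5. Their part in these changes was not tested.

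**Figure D2:**
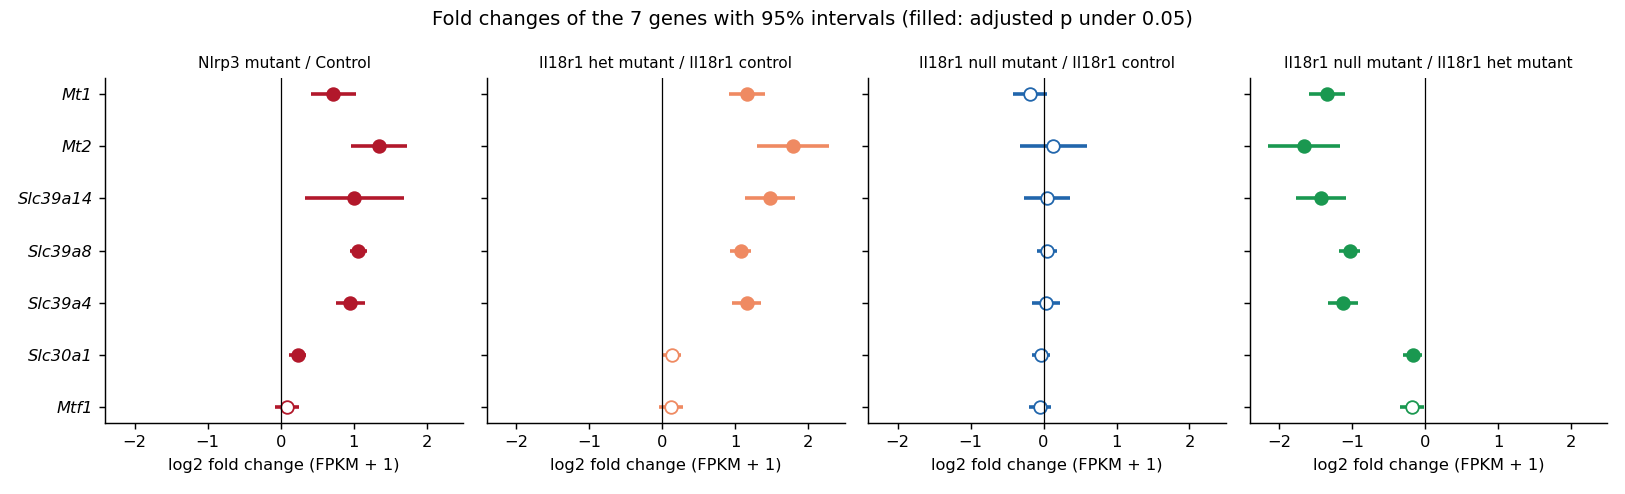
Log2 fold change of FPKM + 1 (x axis) of the 7 genes in the 4 comparisons, 1 panel each, with 95% intervals from limma; filled points have an adjusted p under 0.05. The 5 metallothionein and importer genes lie between 0.72 and 1.79 in the panels of the Nlrp3 mutant and the het mutant, near 0 in the null mutant against the Il18r1 control, and between -1.66 and -1.03 in the null against the het mutant.

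The ratio of Mt2 to Mt1 was looked at because the neighbouring genes share their inducers. It was 0.671 ± 0.0286 (SD, n = 3) in the Nlrp3 mutant and 0.426 ± 0.0783 (SD, n = 3) in Control. All 3 mutant libraries were above all 3 Control libraries, yet the exact two-sided permutation test gave p = 0.1, the smallest it can give with 3 against 3. In the second experiment the ratio was 0.494 ± 0.0908 (SD, n = 4) in the null mutant, 0.639 ± 0.149 (SD, n = 3) in the het mutant and 0.392 ± 0.0665 (SD, n = 4) in the Il18r1 control. Het library 1, at 0.472, lay within the range of the Il18r1 control, whose highest library was also at 0.472. The exact p was 0.114 for the het mutant against the control, 0.143 for the null mutant against the control and 0.171 for the null against the het mutant. With 3 against 4 libraries the smallest p possible is 0.0571 and with 4 against 4 it is 0.0286. Before adjustment, only the test of the null mutant against the control could therefore have passed 0.05. After adjustment over the 4 tests, none could. The adjusted p was 0.171 for each.

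**Figure D3:**
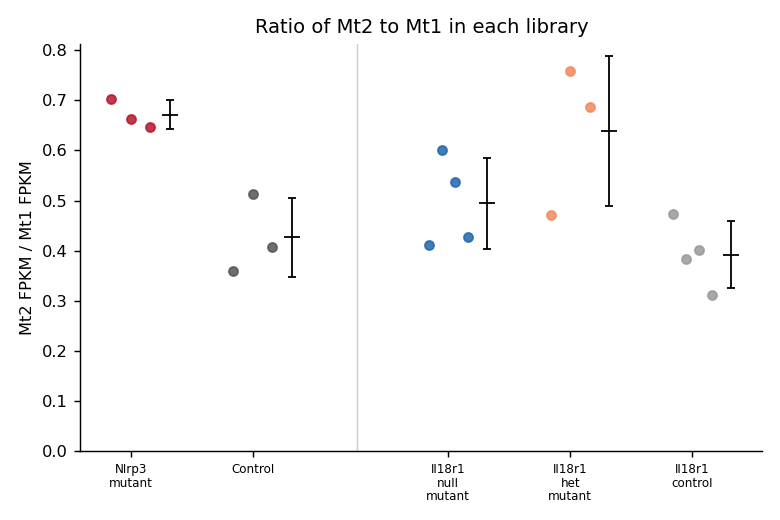
Ratio of Mt2 FPKM to Mt1 FPKM (y axis, from 0) in each of the 17 libraries, with the group mean and SD beside the points; the grey line parts the 2 experiments. The Nlrp3 mutant libraries lie at 0.647 to 0.703 and Control at 0.359 to 0.512, while the 3 het mutant libraries spread from 0.472 to 0.759.

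Among the other genes of the zinc transporter families calls went in both directions. Of 11 other importers of the ZIP family (Slc39a), 9 passed the filter of 1 FPKM in at least 3 libraries. In the Nlrp3 mutant against Control, 1 was called higher and 3 lower, in the het mutant against the Il18r1 control 2 higher and 1 lower, in the null mutant against the control 0, and in the null against the het mutant 1 higher and 2 lower. At equal total FPKM the counts were 1 higher and 6 lower, 2 higher and 7 lower, 0, and 6 higher and 2 lower, and no gene called before changed its sign. Of 9 other exporters of the ZnT family (Slc30a), 6 passed the filter. They gave 1 higher and 1 lower in each comparison, except that 0 were called in the null mutant against the Il18r1 control. At equal total FPKM the ZnT counts became 1 higher and 3 lower in the het mutant against the control and 4 higher and 1 lower in the null against the het mutant. Scaling by median of ratios left the ZIP and ZnT counts of the main fit unchanged.

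Slc39a1 (ZIP1), a zinc importer of the cell surface, was at 104, 86.3 and 96.2 FPKM in the Nlrp3 mutant and 76.8, 73.7 and 70.7 FPKM in Control. It was higher there (log2 fold change 0.36, adjusted p = 0.00389) and in the het mutant against the Il18r1 control (0.49, adjusted p = 7.7e-06), and lower in the null against the het mutant (-0.49, adjusted p = 1.06e-05). Slc39a6 (ZIP6), another importer of the cell surface, went the other way. It was at 14.4, 13.4 and 14.5 FPKM in the Nlrp3 mutant and 22.6, 23.4 and 23.4 FPKM in Control, a log2 fold change of -0.68 (adjusted p = 4.92e-05). It was likewise lower in the het mutant against the Il18r1 control (-0.70, adjusted p = 1.88e-06) and higher in the null against the het mutant (0.63, adjusted p = 5.91e-06). Slc39a11 (-0.35, adjusted p = 0.0156) and Slc39a13 (-0.21, adjusted p = 0.031) were lower in the Nlrp3 mutant against Control, and Slc39a2 was higher in the het mutant against the Il18r1 control (0.62, adjusted p = 0.000187) and lower in the null against the het mutant (-0.45, adjusted p = 0.00186).

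Among the exporters, Slc30a2 (ZnT2), which loads zinc into vesicles and is known from the mammary gland, was at 3.28, 3.27 and 3.70 FPKM in the Nlrp3 mutant, against 1.64, 1.14 and 0.899 FPKM in Control. The groups were apart at a low level (log2 fold change 1.00, adjusted p = 0.000462). It was also higher in the het mutant against the Il18r1 control (0.34, adjusted p = 0.0119) and lower in the null against the het mutant (-0.38, adjusted p = 0.00653). Slc30a6 was lower in the Nlrp3 mutant against Control (-0.24, adjusted p = 0.0295), and Slc30a9, a mitochondrial zinc transporter, was lower in the het mutant against the Il18r1 control (-0.29, adjusted p = 0.00053) and higher in the null against the het mutant (0.25, adjusted p = 0.00161). Of the other metallothioneins, Mt3, known from brain, reached at most 2.35 FPKM in a library, and Mt4, known from skin, was listed at 0 in all, so neither was tested.

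**Figure D4:**
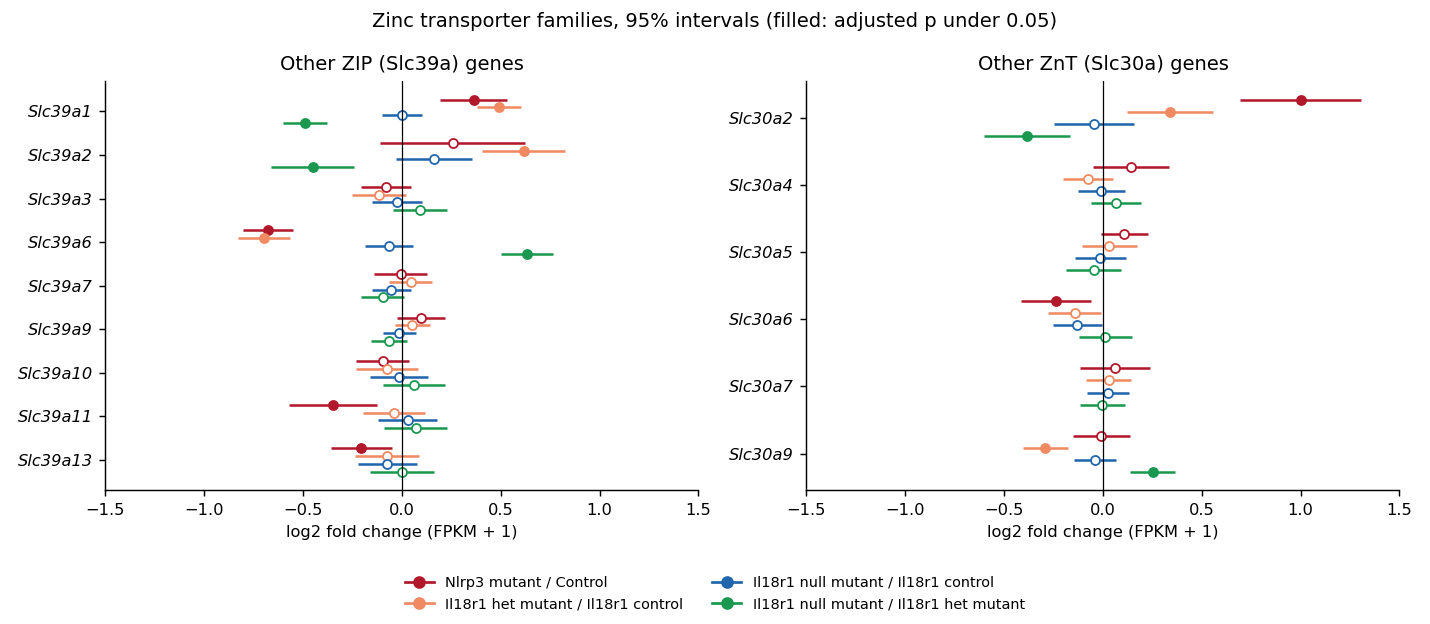
Log2 fold change of FPKM + 1 (x axis) with 95% intervals for the 9 other ZIP genes (left) and the 6 other ZnT genes (right) that were tested, coloured by comparison; filled points have an adjusted p under 0.05. Slc39a1 and Slc39a6 lie on opposite sides of 0 in each comparison with the het or Nlrp3 mutant, and Slc30a2 reaches 1.00 in the Nlrp3 mutant against Control.

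The 4 further genes linked to MTF1 did not move as a block. Gclc, which makes the first step of glutathione synthesis, and Ndrg1 were higher in the Nlrp3 mutant against Control (1.02 and 0.83, adjusted p = 0.000115 and 7.09e-05) and in the het mutant against the Il18r1 control (0.80 and 0.44, adjusted p = 0.000583 and 0.00131). Csrp1 and Sepw1 were lower in both, by -0.59 and -0.30 in the first and by -0.54 and -0.47 in the second. In the null mutant against the Il18r1 control 0 of the 4 were called, and in the null against the het mutant Csrp1 was higher while Gclc and Ndrg1 were lower. At equal total FPKM Ndrg1 lost the last of these calls (-0.12, adjusted p = 0.26) and Sepw1 was called higher there (0.44, adjusted p = 0.00098).

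Carriers of copper and manganese were set beside the zinc genes, since ZIP14 and ZIP8 also carry manganese and metallothioneins bind copper. Of 6 such genes, 5 were higher in the Nlrp3 mutant, 5 were higher and 1 lower in the het mutant against the Il18r1 control, 0 were called in the null mutant against the control, and in the null against the het mutant 1 was higher and 4 lower. At equal total FPKM the counts were 3 higher and 1 lower in the Nlrp3 mutant, where Atp2c1 and Slc11a2 lost their calls and Atp7a was lower, and 4 higher and 1 lower in the het mutant. Atp7b, a copper pump, was at 9.22, 8.27 and 8.80 FPKM in the Nlrp3 mutant and 2.92, 2.46 and 2.67 FPKM in Control. Its log2 fold changes were 1.41 in the Nlrp3 mutant (adjusted p = 1.37e-05), 1.46 in the het mutant against the control (adjusted p = 2.5e-05) and -1.36 in the null against the het mutant (adjusted p = 5.03e-05). The copper importer Slc31a1 followed with 0.80, 0.77 and -0.67 (adjusted p = 2.08e-05, 1.56e-07 and 7.58e-07), all 3 called. Atp2c1 was called higher in the het mutant (0.15, adjusted p = 0.0388) but stood at -0.0084 at equal total FPKM.

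Genes of the other known inducers of metallothioneins were then read in the same libraries. Of 5 genes of the IL-6 and STAT3 axis, 4 were tested, since Il6 itself did not pass the filter. All 4 were higher in the Nlrp3 mutant and in the het mutant against their controls and lower in the null against the het mutant. At equal total FPKM Il6st, the receptor chain shared by the IL-6 family, was not called in the Nlrp3 mutant (0.16, adjusted p = 0.0694), which left 3 of 4. Scaling by median of ratios kept all 4. Socs3, the feedback inhibitor induced by STAT3, had log2 fold changes of 1.71 (adjusted p = 0.00201), 2.25 (adjusted p = 5.05e-07) and -1.73 (adjusted p = 5.55e-06) in these comparisons. In the null mutant against the Il18r1 control 0 of the 4 were called, with Socs3 at 0.51 (adjusted p = 0.155). The untested Il6 averaged 0.699 FPKM in the Nlrp3 mutant and 0.148 FPKM in Control. Its means were 0.653 FPKM in the null mutant, 0.787 FPKM in the het mutant and 0.179 FPKM in the Il18r1 control. Of 8 glucocorticoid-responsive genes, a list that included the receptor gene Nr3c1, 7 were higher and 1 lower in the Nlrp3 mutant. In the het mutant against the control 5 were higher and 1 lower, and in the null mutant against the control 0 were called. In the null against the het mutant 1 was higher and 4 lower. Each time the gene called in the other direction was Nr3c1, at 0.906 times the Control mean in the Nlrp3 mutant. At equal total FPKM the het mutant had 4 higher and 1 lower, without Per1 (1.04, adjusted p = 0.0616). Fkbp5, a chaperone induced by glucocorticoids, had log2 fold changes of 2.33 (adjusted p = 0.000184), 2.14 (adjusted p = 0.000213) and -1.98 (adjusted p = 0.000416) in those 3 comparisons. Whether these genes and the members share a cause was not tested.

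The spread among libraries of 1 mutant group was shared across some of these genes. In the Nlrp3 mutant, library 2 held the lowest value of 5 of the 7 members, of 7 of the 8 glucocorticoid-responsive genes and of 4 of the 5 IL-6 axis genes, while it was lowest for 41.4% of all genes tested and 37.7% of those called higher. In the het mutant, library 1 was lowest for all 7 members, 6 of the 8 and 4 of the 5, beside 32.8% of all genes tested and 53.3% of those called higher. The exception among the 5 was the untested Il6, which was highest in het library 1, at 1.26 FPKM. The size of the spread differed by gene. Slc39a14 had a highest over lowest ratio of 2.75 in the Nlrp3 mutant and 1.97 in the het mutant, and Slc39a8 had 1.01 and 1.13. Zbtb16, a glucocorticoid-induced transcription factor, spread more than any member, with 28.6, 5.37 and 18.7 FPKM in the Nlrp3 mutant and 1.30, 16.3 and 19.8 FPKM in the het mutant. Fkbp5 was at 53.8, 23.4 and 40.0 FPKM in the Nlrp3 mutant and 11.5, 42.0 and 44.7 FPKM in the het mutant, and Socs3 at 90.8, 34.2 and 67.8 FPKM in the first and 75.8, 120 and 103 FPKM in the second. These libraries and genes were picked after their values were seen, and with 3 libraries a group the shared order was not tested.

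**Figure D5:**
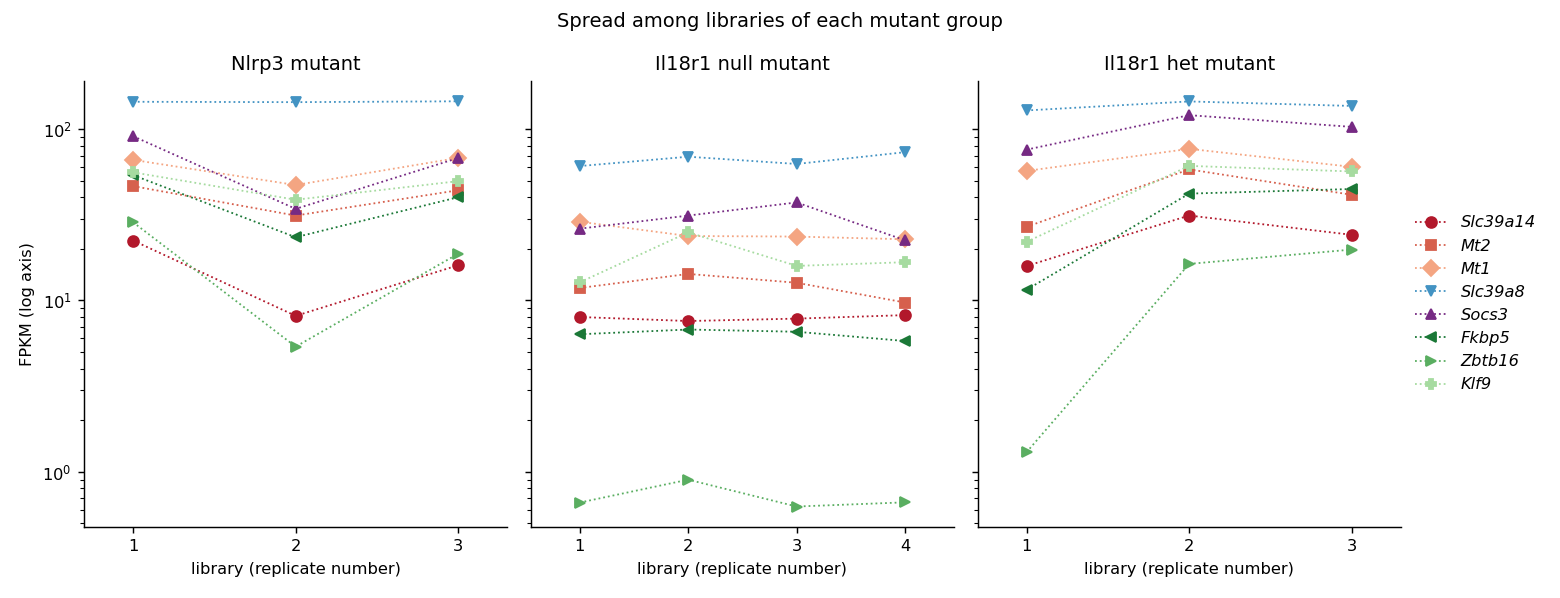
FPKM (y axis, log scale) of 4 zinc genes, Socs3 and 3 glucocorticoid-responsive genes in each library of the 3 mutant groups; dotted lines join the values of 1 gene and carry no order in time. Slc39a14, Mt2, Socs3, Fkbp5 and Zbtb16 dip in library 2 of the Nlrp3 mutant and library 1 of the het mutant, whereas Slc39a8 is nearly level at 143 to 145 FPKM and 128 to 145 FPKM.

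Genes with the most alike pattern were ranked by Pearson's r of log2(FPKM + 1) over the 17 libraries, each table centred on its own mean. The 9563 genes compared had a mean of at least 5 FPKM in both tables. Predicted genes, Riken clones and immunoglobulin or T cell receptor segments were left out. For Mt1 the most alike were Tspan5 (r = 0.977), Parp3, Pdpn, Slc39a1 and Alas1 (r = 0.961). For Mt2 they were Il4ra (r = 0.976), Pgf, Sema7a, Ssh3 and Ptprj (r = 0.965), and for Slc39a14 Nlrx1 (r = 0.982), Adamts15, Sema7a, Jade2 and Il4ra (r = 0.972). Mt1 and Mt2 correlated with r = 0.943, which ranked Mt2 27 among the genes like Mt1 and Mt1 81 among the genes like Mt2. Sema7a and Il4ra stood in the lists of both Mt2 and Slc39a14. These values describe libraries that share their genotype groups and carry no p-value.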

How the data were processed

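Per the submitters' processing notes, reads were aligned with STAR to GRCm38 (mm10). Per the labels' protocols, lung was homogenised, RNA purified on Qiagen columns, and stranded mRNA libraries sequenced as paired ends on a NovaSeq. Values per gene and library are FPKM that the authors deposited in 2 tables, 1 per experiment, of 24354 lines each, of which 27 named by a date were dropped. The unit was inferred from the values, since no header names it, and the quantification tool is not given in the sources used here. Comparisons of the second experiment also came as 3 tables by the authors, with columns for log2 fold change, standard error and p-value, raw and adjusted, per the file headers. Direction in them, mutant over control and null over het, was checked on the FPKM.

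Tables were tested separately with limma 3.58.1 under R 4.3.3, on log2(FPKM + 1) with the trend option, a scale that understates changes of low genes. The filter of 1 FPKM in 3 or more libraries left 13549 and 13724 genes. Adjustment was by Benjamini-Hochberg over these, and the threshold 0.05. The second experiment was fitted with all 11 libraries. The fit was tested on simulated data. Ratios used exact permutation tests in scipy 1.17.1 (Python 3.11.15). Read depth is unknown, so no counting interval was made. Promoter windows are those of RefSeq. Alternatives were scaling by median of ratios or to equal total FPKM, and another pseudocount or filter. The former divides each library by the median, over genes, of its ratio to the geometric mean of all libraries. Other settings were a replicate block, a robust fit, an Xist covariate, 2 groups only and each library left out. All 7 members are named, and of each other list up to 4 genes with the smallest p, plus those needed to account for a count. The members and lists were chosen with earlier results of these data known.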

Additional observations from a re-analysis of the deposited data

Results flagged for a closer look

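Of 14 sets of 4 libraries looked at (7 genes in the null mutant and in the Il18r1 control), 2 held a library whose gap to its nearest neighbour passed Dixon's 95% critical value, which chance does in about 1 in 20. Mt1 was at 28.8 FPKM in null library 1, above the other 3 null libraries at 22.7 to 23.7 FPKM. Slc39a4 was at 13.2 FPKM in null library 3, above the other 3 at 11.1 to 11.4 FPKM. They are different libraries, and groups of 3 were not looked at in this way.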

How the results depend on the processing

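Of the values of single members under other settings, 509 kept their direction and side of the threshold or stayed uncalled, 9 lost their call, 2 gained one and 1 reversed. The reversed value is Slc30a1 in the null against the het mutant, at 0.023 with equal total FPKM. Slc30a1 also lost that call with a replicate block (-0.16, adjusted p = 0.0654), with 2 groups only (adjusted p = 0.0726) and without het library 2 or 3 or null library 2 or 4. Mtf1 was called there without null library 3 (-0.22, adjusted p = 0.0305). Genes called in the null mutant against the Il18r1 control were 177 at a mean of at least 5 FPKM, where fewer genes were tested, and 420 in a robust fit with array weights, where the cause was not tested, beside 270. Leaving out each library in turn gave 5930 to 6940 genes called in the Nlrp3 mutant against Control, 6815 to 7753 in the het mutant against the Il18r1 control, 206 to 309 in the null mutant against the control and 6398 to 7213 in the null against the het mutant. Members called were then 5 to 6, 5 to 6, 0 to 0 and 5 to 7. Scaling by median of ratios gave the main fit's counts of calls for the members and for the lists of metal genes and inducers. Equal total FPKM moved the median of all genes by -0.15 in the Nlrp3 mutant, -0.16 in the het mutant and 0.19 in the null against the het mutant, and the split of higher against lower calls to 2391 and 5613, 2484 and 6482, and 6961 and 2037, beside 3788 and 3740, 3752 and 3964, and 3675 and 3636.

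Same-numbered libraries did not deviate together: correlations ran from -0.077 to 0.11 over 3 pairs and from -0.10 to 0.27 over 10 pairs, so the numbers were not taken to pair them. A fit with the replicate number as a block called 7009, 7278, 225 and 6807 genes and 6, 5, 0 and 5 members in the comparisons in the order above. Mtf1 could not be fitted at a mean of at least 5 FPKM. With 3 or 4 libraries a group and no read counts per library, small changes such as those of Slc30a1 and Mtf1 are at the limit of what these data resolve.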
